A study of Mus musculus with 2 samples.

Results

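Skeletal muscle genes other than the myosin, troponin and tropomyosin genes were measured in the pancreas of newborn Glis3 mutant mice and of wild-type mice. The set holds 46 genes, which were grouped by function into Z-disc and sarcomere (17 genes), calcium handling (10), energy metabolism (11), the neuromuscular junction (3) and myogenic factors (5). The genes were listed by name because genes of skeletal muscle had been seen to be higher in the mutant pool on these same arrays. The ratios below are therefore a description of the listed genes, and their direction is not independent evidence of a rise. Of the 46 genes, 42 had a probe named by accession or symbol, out of 16769 genes named on the array, and those 42 genes had 57 probes. For 34 of the 42 genes the probe was the only one.

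The mutant samples came from the pancreas of Glis3zf/zf pups, called Glis3KO in the labels, at postnatal day 3, and the control samples from wild-type pancreas of the same age. The Glis3 protein is a Krüppel-like transcription factor with zinc fingers, and the study addressed its part in the development of pancreatic beta cells. For each genotype the RNA of 2 pups was combined, and the same pair of pools was hybridised to 2 two-colour arrays with the dyes exchanged, so that each genotype has 1 sample. The strain of the mice, the nature of the mutant allele and the way the pancreas was dissected are not stated in the sources used here. No test between genotypes could be made, and the error given after ± is the distance of each array from the mean of both, which measures the technique and not the spread between animals.

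Skeletal muscle fibres contract by sliding thin actin filaments along thick myosin filaments within sarcomeres, whose thin filaments are anchored at the Z-discs. An action potential that starts at the acetylcholine receptors of the neuromuscular junction releases calcium from the sarcoplasmic reticulum, and creatine kinase, glycolysis and mitochondrial respiration restore the ATP that is spent. Many of these proteins are made as muscle isoforms by genes separate from those used in other tissues. The transcription factors MyoD, Myf5, myogenin and Myf6 switch these genes on during muscle formation, and Pax7 marks the satellite cells from which fibres grow and are repaired. The pancreas consists mainly of acinar, duct and endocrine cells, and none of these builds sarcomeres.

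All ratios are on the log2 scale with the mutant on top, averaged over both arrays after background correction and loess normalisation. Calls were made by a rule of size: the mean change had to reach 2-fold, and each of the 2 arrays had to show 1.5-fold or more with the same sign. Raw signals are mean spot intensities in scanner units before any correction. They are given with the array that carried the mutant in Cy5 first and the array that carried it in Cy3 second. On the first of these the median raw signal of all gene spots was 208.2 in the mutant channel and 265 in the wild-type channel, so a gene at equal abundance had a lower raw signal in the mutant there. On the other array these medians were 209.7 and 207. Signals of different probes cannot be set against each other.

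Of the 42 genes with a probe, 40 were well above background in at least 1 genotype on both arrays. Pvalb, which encodes the calcium buffer parvalbumin of fast fibres, and Myf5 were not. For Klhl41 this rested on the mutant channel, since its wild-type signal reached that level on 1 array. The other 39 genes reached it in both genotypes on both arrays. By the rule of size 12 of the 40 genes were higher in the mutant pool, where 38 of all 16513 detected genes (0.23%) were higher. No member was lower, where 25 of all genes (0.151%) were. Those 12 made up 31.6% of the 38 higher genes, and the other 26 higher genes are not members. The ratio was above 0 on both arrays for 32 of the 40, against 32.5% of all genes, and below 0 on both for 3, against 30.5% of all genes. The median ratio was 0.40 over the 40 members and 0.00 over all detected genes, whose middle 50% lay between -0.07 and 0.07. In a pooled tissue, more or fewer cells of a type and more or less RNA per cell cannot be told apart.

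**Figure D1:**
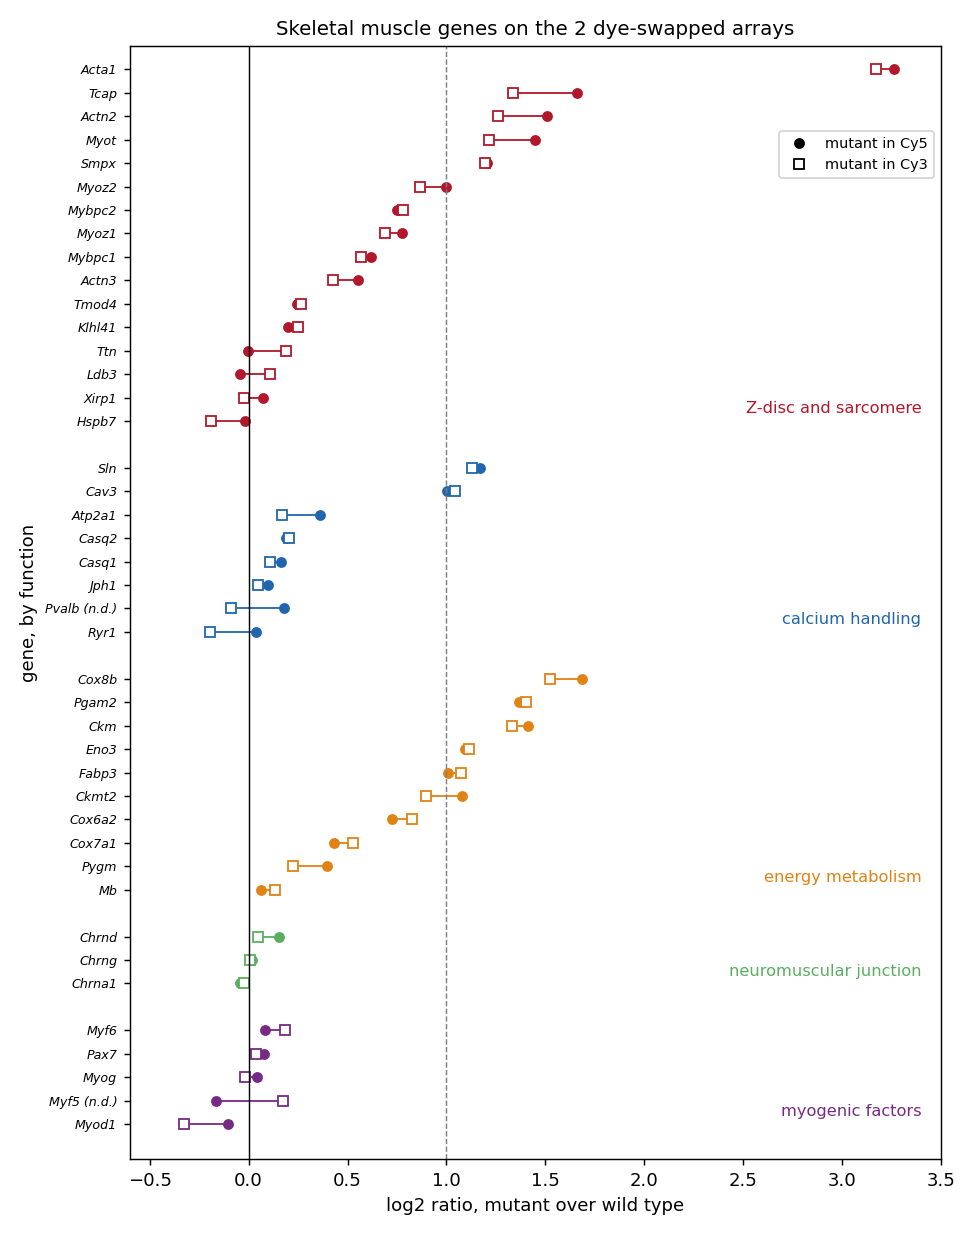
Log2 ratio of mutant over wild type for the 42 genes with a named probe, by function, with the array that carried the mutant in Cy5 as filled circles and the array that carried it in Cy3 as open squares. The dashed line marks 2-fold, and n.d. marks Pvalb and Myf5, which were not detected. Acta1 stands at 3.26 and 3.17, energy metabolism genes lie to the right of 0, and the receptor and myogenic factor genes lie around 0.

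The higher genes belonged to the contractile apparatus, to energy supply and to the membrane systems of the fibre, and none was a receptor or transcription factor gene. The Z-disc and sarcomere group had 5 higher genes of 16 detected and a median of 0.66. Energy metabolism had 5 of 10 and a median of 1.01. Calcium handling had 2 of 7 and a median of 0.20. The neuromuscular junction had 0 of 3 and a median of 0.01, and the myogenic factors 0 of 4 and a median of 0.04.

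Promoters are shown for 3 of the higher genes, a structural gene and a pair of enzyme genes, and for a receptor gene that was not higher, to show where short motifs known to be bound by muscle transcription factors lie in both kinds of gene. MyoD and its relatives bind E-boxes (CANNTG), among which CAGCTG and CACCTG were searched by name. The MEF2 motif is bound by the MEF2 proteins, the CArG box by serum response factor, and TATAAA by the general transcription machinery. The sequences are those of RefSeq, assembly GRCm38.p6, each running 5′ to 3′ from 250 bases before to 50 bases after the start of the gene, on the strand of the gene. Capitals mark the named E-boxes, TATAAA, the MEF2 motif and the CArG box, all searched on both strands, so that CACCTG also appears as its reverse complement. The windows are chr8:123894726-123895025 (minus strand) for Acta1, chr7:19410844-19411143 (plus) for Ckm, chr11:5803747-5804046 (minus) for Pgam2 and chr2:73580289-73580588 (minus) for Chrna1.
Acta1: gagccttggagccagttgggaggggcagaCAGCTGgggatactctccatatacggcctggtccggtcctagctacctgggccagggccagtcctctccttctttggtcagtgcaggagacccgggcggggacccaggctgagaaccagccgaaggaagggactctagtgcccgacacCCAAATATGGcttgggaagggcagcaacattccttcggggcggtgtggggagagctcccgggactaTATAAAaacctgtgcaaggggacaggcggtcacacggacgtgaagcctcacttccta
Ckm: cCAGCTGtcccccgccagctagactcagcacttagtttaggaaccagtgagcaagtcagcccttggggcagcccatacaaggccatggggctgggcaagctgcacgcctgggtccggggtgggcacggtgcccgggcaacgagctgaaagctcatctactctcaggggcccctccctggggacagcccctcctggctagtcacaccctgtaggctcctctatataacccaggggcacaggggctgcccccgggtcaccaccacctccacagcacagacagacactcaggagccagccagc
Pgam2: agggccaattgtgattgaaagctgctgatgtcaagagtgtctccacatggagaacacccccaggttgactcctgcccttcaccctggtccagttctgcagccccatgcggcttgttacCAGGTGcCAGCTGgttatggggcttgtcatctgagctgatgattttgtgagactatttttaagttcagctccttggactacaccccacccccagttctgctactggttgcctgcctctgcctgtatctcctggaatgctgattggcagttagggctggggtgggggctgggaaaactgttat
Chrna1: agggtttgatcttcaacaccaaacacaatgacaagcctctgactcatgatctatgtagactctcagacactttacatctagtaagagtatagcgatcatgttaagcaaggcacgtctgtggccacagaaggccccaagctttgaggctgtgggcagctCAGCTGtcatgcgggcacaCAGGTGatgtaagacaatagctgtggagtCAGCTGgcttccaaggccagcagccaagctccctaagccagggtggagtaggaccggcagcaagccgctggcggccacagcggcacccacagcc

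In the Acta1 window, CAGCTG began 221 bases before the start of the gene, the CArG box 73 bases and TATAAA 7 bases before it. Ckm held CAGCTG 249 bases before the start, at the far end of its window. Pgam2 held CACCTG and CAGCTG next to each other, 132 and 125 bases before the start. Chrna1 held CAGCTG 92 and 44 bases before the start, with CACCTG between them, 73 bases before it. A window was on hand for 32 of the 46 genes. The first window of each gene held CAGCTG in 16 of the 32 (50%), where 16.3% of all 32851 promoter windows of the same length held it. For CACCTG it was 8 of 32 (25%) against 20.2%, and for any CANNTG, which takes in both, 26 of 32 (81.2%) against 72.3%. TATAAA was in 3 of 32 (9.38%) against 13.6%, the MEF2 motif in 3, those of Klhl41, Myoz2 and Ttn, against 0.557%, and the CArG box in 2, those of Acta1 and Ldb3, against 1.63%. Among the 9 higher genes with a window, 6 held CAGCTG, 1 CACCTG, 2 TATAAA, 1 the CArG box and 0 the MEF2 motif. These are matches of letters within short windows and not measured binding sites, and nothing was tested on them.

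Among the structural genes, skeletal actin stood far above the rest. Acta1 (NM_009606), the actin of the thin filament of skeletal muscle, had raw signals of 3855 and 3461 in the mutant pool, against 495 and 433 in the wild-type pool. On each array the mutant signal was several times the wild-type one, in 2 readings of the same pair of pools. Its ratios were 3.26 and 3.17, with a mean of 3.22 ± 0.04, or 9.30-fold higher. It ranked 6 of all 16513 detected genes by mean ratio. The files place its probe on chromosome 8 from 123179370 to 123179429, in a genome build that the sources used here do not name.

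Tcap (NM_011540; chromosome 11, 98205901 to 98205960) encodes telethonin, the Z-disc protein that binds the end of titin. It had raw signals of 408 and 401 in the mutant pool, against 167 and 164 in the wild-type pool. Its ratios of 1.66 and 1.34 gave a mean of 1.5 ± 0.16, or 2.83-fold, and no other detected member differed more between the arrays. Actn2 (NM_033268; chromosome 13, 12310893 to 12313389) encodes alpha-actinin 2, which cross-links actin filaments at the Z-disc. It had 223 and 209.5 in the mutant pool, against 109 and 84.2 in the wild-type pool, with ratios of 1.51 and 1.26 and a mean of 1.38 ± 0.13, or 2.61-fold. The wild-type signals lay little above those of negative control spots, whose 95th percentile was between 60.8 and 76.2 over the channels. Such dim genes moved with the processing. With an offset of 0 in the background correction the ratio of Actn2 was 2.28, and the scanner software's own ratios gave 5.32-fold.

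Myot (NM_021484) encodes myotilin, a Z-disc protein that binds alpha-actinin. It had raw signals of 174 and 189.8 in the mutant pool, against 89.9 and 78.3 in the wild-type pool. Its ratios were 1.45 and 1.21, with a mean of 1.33 ± 0.12, or 2.52-fold, and 6.47-fold by the software's ratios. Smpx (NM_025357; chromosome X, 151351844 to 151351903) encodes the small muscle protein made from the X chromosome. It had 226 and 219.6 in the mutant pool, against 129 and 93.3 in the wild-type pool. Both arrays gave a ratio near 1.2, with a mean of 1.2 ± 0.00, or 2.30-fold, and the software's ratios gave 3.96-fold. For each of these genes, both mutant signals exceeded both wild-type signals.

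A further 3 structural genes came within 0.3 log2 of the 2-fold limit without passing it. Myoz2, which encodes a calsarcin, a Z-disc protein that binds calcineurin, had raw signals of 278 and 253 in the mutant pool, against 182 and 137 in the wild-type pool. Its mean ratio of 0.93 ± 0.07 (1.91-fold) missed the rule, but it passed with the software's ratios, at 2.47-fold. Myoz1, the calsarcin of fast fibres, had 322 and 293 in the mutant pool, against 237 and 184 in the wild-type pool, with a mean ratio of 0.73 ± 0.04, and its other probe gave 0.51. Mybpc2, the fast-fibre form of myosin binding protein C, had 433 and 396 in the mutant pool, against 322 and 239.9 in the wild-type pool, with a mean of 0.77 ± 0.02. Below them came Mybpc1, its slow-fibre form, with a ratio of 0.59, and Actn3, the alpha-actinin of fast fibres, with 0.49. Tmod4, a tropomodulin that caps thin filaments, had 0.25. Klhl41, a Kelch protein of the sarcomere, had 0.22 but passed the rule with the software's ratios, at 2.05-fold, its wild-type signals being 83 and 64.2.

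The remaining structural genes had ratios near 0 on the arrays. Ttn, the gene of titin, the elastic protein that spans from Z-disc to mid-sarcomere, was read by 8 probes whose mean ratios lay between 0.01 and 0.36 with a median of 0.11, and 7 of the 8 were above 0 on both arrays. The brightest of them gave 0.09 ± 0.10. Ldb3, a PDZ and LIM domain protein of the Z-disc, had 0.03, and Xirp1, an actin-binding protein with Xin repeats, had 0.03. Hspb7, a small heat shock protein of heart and muscle, had -0.10 ± 0.09 by its brighter probe. Its other probe is spotted 10 times on each array. Across those spots the ratio ran between -0.12 and 0.06 (SD 0.063) where the mutant was in Cy5 and between -0.03 and 0.16 (SD 0.060) on the other, which shows the scatter between spots of a single probe.

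**Figure D2:**
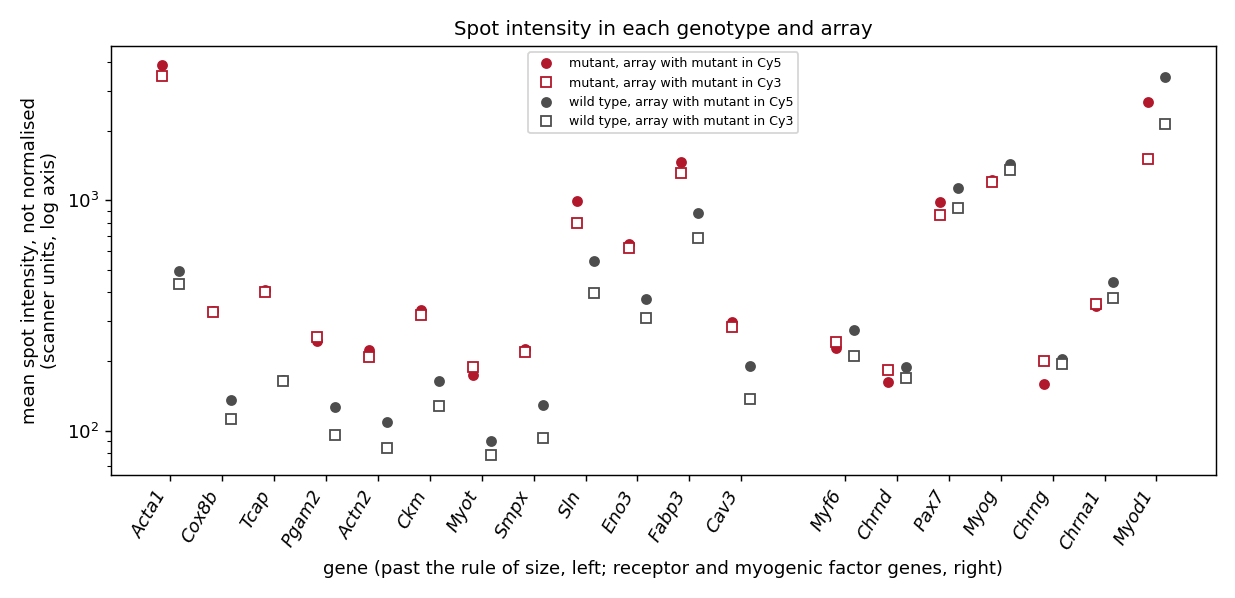
Mean spot intensity in scanner units, before correction, on a log axis, for the 12 genes past the rule of size (left, in order of their ratio) and the 7 detected receptor and myogenic factor genes (right). Mutant values are red and stand left of the grey wild-type values, and filled circles and open squares tell the array with Cy5 mutant from that with Cy3 mutant. For the 12 genes at left both mutant points lie above both wild-type points, as for Acta1 with 3855 and 3461 against 495 and 433, whereas the genotypes overlap or lie close at right.

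Enzymes and carriers of muscle energy metabolism lay on the same side of 0, all 10 detected genes being above 0 on both arrays. Cox8b (NM_007751; chromosome 7, 135300712 to 135300771), a muscle and heart subunit of cytochrome c oxidase, had raw signals of 331 and 326 in the mutant pool, against 136 and 113 in the wild-type pool. Its ratios of 1.68 and 1.52 gave a mean of 1.60 ± 0.08, or 3.04-fold, and 4.97-fold by the software's ratios. It ranked second to Acta1 among the members. The other muscle-type subunits did not pass the rule. Cox6a2 had 787 and 701 in the mutant pool, against 587 and 427 in the wild-type pool, with a mean ratio of 0.78 ± 0.05, and Cox7a1 had a mean ratio of 0.48.

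Both creatine kinase genes of muscle had higher signals in the mutant pool, and 1 of them passed the rule. Ckm (NM_007710; chromosome 7, 16286118 to 16288725), the cytosolic muscle form that regenerates ATP from phosphocreatine, had 333 and 319 in the mutant pool, against 165 and 128 in the wild-type pool. Its ratios were 1.41 and 1.33, with a mean of 1.37 ± 0.04, or 2.59-fold. Ckmt2, the mitochondrial form of striated muscle, had 148 and 144 in the mutant pool, against 98.2 and 71.1 in the wild-type pool. Its ratios of 1.08 and 0.90 gave a mean of 0.99 ± 0.09, or 1.98-fold, just under the limit. It passed with the software's ratios, at 4.81-fold, with a background offset of 0, and with median centring in place of loess.

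Of the glycolytic enzymes, Pgam2 (NM_018870; chromosome 11, 5696607 to 5697825), the muscle phosphoglycerate mutase, had raw signals of 245 and 256 in the mutant pool, against 127 and 96.0 in the wild-type pool. Its ratios were 1.37 and 1.40, with a mean of 1.39 ± 0.02, or 2.61-fold, and 4.64-fold by the software's ratios. Eno3 (NM_007933; chromosome 11, 70388086 to 70388145), the muscle enolase, had 646 and 623 in the mutant pool, against 375 and 309.55 in the wild-type pool, and was 2.15-fold higher, with a mean ratio of 1.1 ± 0.01. Pygm, the muscle glycogen phosphorylase, had a mean ratio of 0.31 and 1.91-fold by the software's ratios.

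The carriers of fuel and oxygen differed. Fabp3 (NM_010174; chromosome 4, 129342478 to 129342537), the fatty acid binding protein of heart and muscle, had raw signals of 1467 and 1310.1 in the mutant pool, against 885.5 and 689 in the wild-type pool. Its ratios of 1.01 and 1.08 gave a mean of 1.04 ± 0.03, or 2.06-fold, and with median centring in place of loess its ratio was 0.98, under the limit. Mb, the gene of the oxygen-binding protein myoglobin, had 607 and 319 in the mutant pool, against 709.8 and 303 in the wild-type pool. Those signals overlapped between the pools, and the mean ratio was 0.10.

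Among calcium handling genes, 2 of the 7 detected passed the rule and the ratios of both rested near the limit or on 1 probe. Sln (NM_025540; chromosome 9, 53957662 to 53957721) encodes sarcolipin, a small membrane protein that inhibits the calcium pump of the sarcoplasmic reticulum. Its brighter probe had raw signals of 995 and 799.7 in the mutant pool, against 548 and 396 in the wild-type pool, with a mean ratio of 1.15 ± 0.02, or 2.22-fold. The other probe of Sln, at 53958050 to 53958109 on the same chromosome, had 212 and 199 in the mutant pool, against 238 and 201 in the wild-type pool, and a mean ratio of 0.06. The probes disagree in call, and their median of 0.61 does not pass the rule. Cav3 (NM_007617; chromosome 6, 113035711 to 113035770), the caveolin of muscle membranes and developing T-tubules, had 297 and 283 in the mutant pool, against 191 and 137 in the wild-type pool. Its mean ratio was 1.02 ± 0.02, or 2.03-fold, and 0.99 without background subtraction. Cav3 and Fabp3 were the members just inside the limit, and Ckmt2 and Myoz2 those just outside it.

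The pump, the release channel and the calcium stores showed smaller ratios. Atp2a1, the calcium pump of fast fibres, had 0.26 by its brighter probe and 0.70 by the other. Casq2 and Casq1, the calsequestrins that hold calcium in heart with slow fibres and in fast fibres, had 0.20 and 0.14. Jph1, a junctophilin that ties the sarcoplasmic reticulum to the T-tubule, had 0.07. Ryr1, the calcium release channel of skeletal muscle, was read from its brightest probe, a cDNA clone with raw signals of 3251 and 3004 in the mutant pool, against 3743 and 4013 in the wild-type pool, and a mean ratio of -0.08 ± 0.11. The dimmer probes of its RefSeq transcript gave 0.18 and 0.29. Pvalb had raw signals of 63.9 and 68.9 in the mutant pool and 73.4 and 60.1 in the wild-type pool, close to the negative controls.

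None of the acetylcholine receptor genes passed the rule of size. Chrna1, the alpha subunit that binds the transmitter, had raw signals of 348 and 355 in the mutant pool, against 444 and 376 in the wild-type pool, with a mean ratio of -0.03 ± 0.01. Chrnd, the delta subunit, had 162 and 183 in the mutant pool, against 190.0 and 169.8 in the wild-type pool, with a mean ratio of 0.10. Chrng, the gamma subunit of the fetal receptor, had 160.0 and 200.3 in the mutant pool, against 205 and 194 in the wild-type pool, with a mean ratio of 0.01. The second probes of Chrna1 and Chrng gave 0.01 and 0.14. The Chrna1 window shown above holds 3 of the named E-boxes and that of Ckm, which passed the rule, holds 1. That of Pgam2, which also passed, holds both CACCTG and CAGCTG. The windows were picked as examples, and a link between motifs and ratios was not tested.

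The myogenic factors did not pass either. Myod1, the gene of MyoD, had raw signals of 2682 and 1508 in the mutant pool, against 3419 and 2149 in the wild-type pool, and a mean ratio of -0.21 ± 0.11. Myog, the myogenin gene that acts as myoblasts differentiate, had 1222 and 1199.9 in the mutant pool, against 1435 and 1358.5 in the wild-type pool, and a mean ratio of 0.01. Pax7 had 988 and 863 in the mutant pool, against 1135 and 926 in the wild-type pool, and a mean ratio of 0.06. Myf6, which is active in mature fibres, had a mean ratio of 0.13. Once normalised, the arrays gave opposite signs for Myog. Myf5 had raw signals of 59.3 and 86.1 in the mutant pool and 84.0 and 66.8 in the wild-type pool and was not detected.

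**Figure D3:**
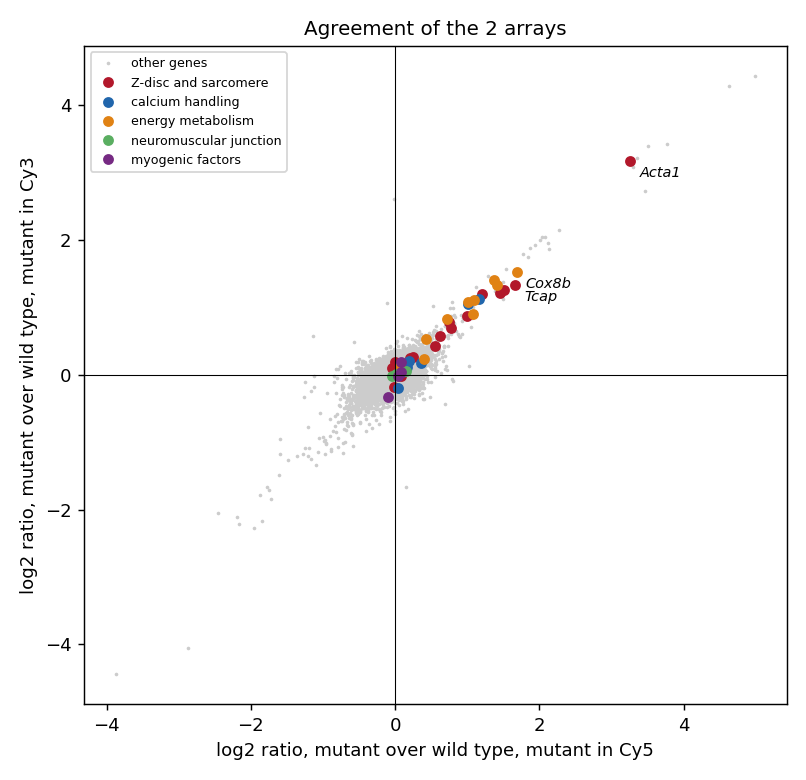
Log2 ratio of mutant over wild type for detected genes, where the horizontal axis is the array that carried the mutant in Cy5 and the vertical axis the array that carried it in Cy3, with the 40 detected members coloured by function and other genes in grey. The 12 higher members lie in the upper right with both arrays close to each other, and the median distance of an array from the mean was 0.04 log2 over the members.

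The remaining 4 genes, Neb, Trdn, Cacna1s and Ampd1, had no probe by the naming rule and stand outside the counts above. Probes that the files describe in words, picked after the values were seen, gave values for them. The 5 probes described as nebulin, the ruler protein along the thin filament, had mean ratios of -0.02, 0.03, 0.10, 0.21 and 0.42. Of the 4 described as triadin, an anchor of the calcium store at the release channel, the cardiac isoform 2 had raw signals of 147 and 177 in the mutant pool, against 92.1 and 86.7 in the wild-type pool, with a mean ratio of 1.04, or 2.06-fold, and 5.00-fold by the software's ratios. The other triadin probes had 0.00, 0.24 and 0.25. The probes for a calcium channel of skeletal muscle sensitive to dihydropyridine, which is what Cacna1s encodes, had -0.06 and 0.01, and a probe similar to AMP deaminase 1, the muscle enzyme that Ampd1 encodes, had 0.22. Some unnamed probes also carry the descriptions of named members and differed from them, as for a creatine kinase clone of the muscle type at 0.09, where Ckm had 1.37, and a myozenin 2 clone at 0.03, where Myoz2 had 0.93.

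Many members are muscle isoforms with relatives made by other genes, and the relatives were measured on the same arrays. Some relatives serve muscle too, such as Atp2a2, a calcium pump of slow-twitch and heart muscle. The relatives are therefore not a set free of muscle genes. The 36 relatives of 24 members were all detected, and 0 were higher and 0 lower by the rule, with a median ratio of -0.02 and a range of -0.35 to 0.26 by their brightest probes. Other probes of these relatives reached -0.65, for Atp2a2, whose brightest probe had -0.10, and 0.27, for Acta2. Of the 21 detected members among those 24, 8 were higher, with a median of 0.77, although these had been listed with the muscle rise in view. For the creatine kinases, Ckm had 1.37 where Ckb, the brain form, had -0.15 by its brighter probe and 0.13 by the other, and Ckmt2 had 0.99 where Ckmt1, the form of other tissues, had -0.16. For cytochrome c oxidase, Cox8b had 1.60 and its relative Cox8a -0.21, Cox6a2 had 0.78 and Cox6a1 -0.22, and Cox7a1 had 0.48 and Cox7a2 -0.20. In glycolysis, Pgam2 had 1.39 and Pgam1 -0.01, while Eno3 had 1.1 and its relatives Eno1 and Eno2 0.09 and 0.07. Pygm, with 0.31, lay nearer to its liver and brain relatives Pygl and Pygb, with 0.20 and 0.17. Its probe is dim, however, and its ratio was 0.76 with an offset of 0 and 0.93 by the software's ratios.

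The structural and membrane isoforms were set beside their relatives in the same way. Acta1 had 3.22, while the cytoplasmic actin genes Actb and Actg1 had 0.00 and 0.05, the heart actin Actc1 had 0.06 and the smooth muscle actin Acta2 had -0.14 by its brightest probe, the other Acta2 probes giving 0.27 and -0.16. Actn2 had 1.38, against 0.06 for Actn1 and -0.06 for Actn4. Cav3 had 1.02, against 0.12 for Cav1 and -0.01 for Cav2. Fabp3 had 1.04, against 0.07 for Fabp4 and -0.02 for Fabp5. The heart form Mybpc3 had -0.16, where Mybpc1 and Mybpc2 had 0.59 and 0.77. Ratios, not levels, were compared between these genes, since each has a probe of its own.

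**Figure D4:**
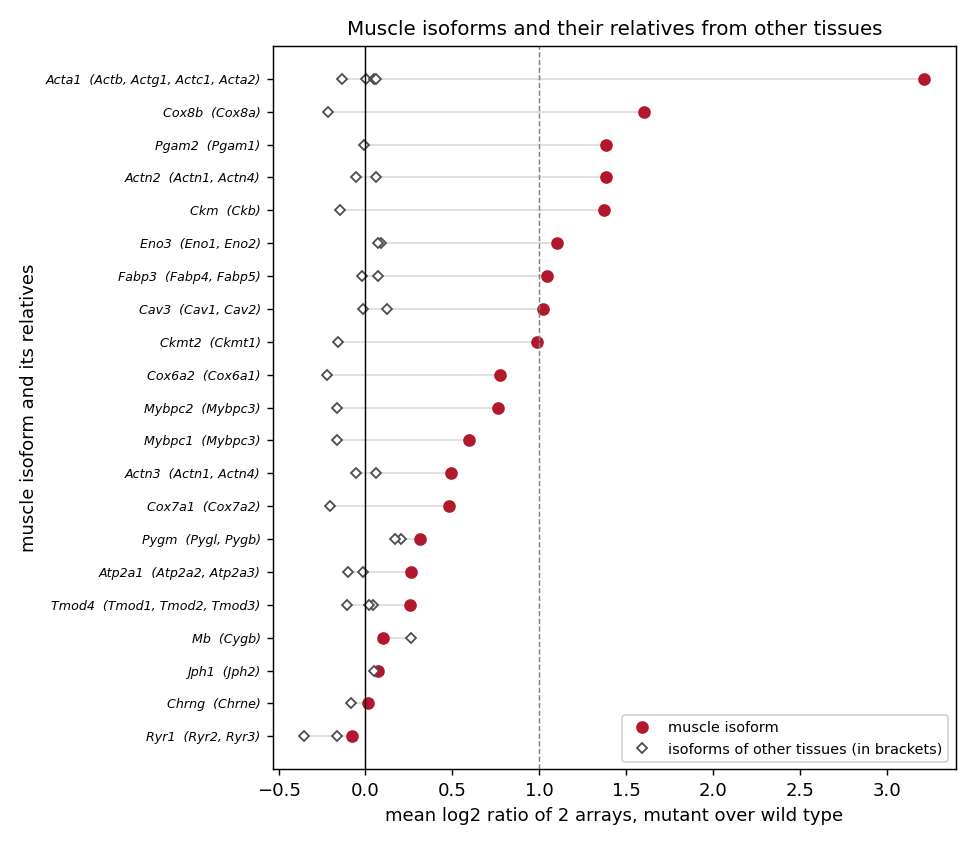
Mean log2 ratio of both arrays, mutant over wild type, for 21 detected muscle isoforms (red circles) and their relatives, named in brackets (open diamonds), with the dashed line at 2-fold. The labels in the plot call the relatives isoforms of other tissues, but some, such as Atp2a2, serve muscle too. Each gene is read from its brightest probe. The relatives lie between -0.35 and 0.26, while the muscle isoforms run up to 3.22 for Acta1, and the lowest, among them Jph1, Chrng and Ryr1, lie within the range of the relatives.

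Other genes of the same functions, taken from wider lists, mostly did not pass the rule. Of 29 further Z-disc and sarcomere genes detected, 1 was higher, Csrp3, the muscle LIM protein, with raw signals of 191 and 199 in the mutant pool, against 118 and 78.0 in the wild-type pool, and a mean ratio of 1.22, or 2.32-fold, and 4.93-fold by the software's ratios. The list's median was 0.14, both arrays put 18 of the 29 above 0 and 1 below it, and Myom2, a protein of the sarcomere's midline, had 0.95. Of 22 further calcium handling genes 0 passed, with a median of 0.03, 7 above and 9 below 0 on both arrays, and Srl, the sarcalumenin gene, had 0.42. Of 15 further energy genes 0 passed, with a median of 0.06, and Adssl1, the muscle adenylosuccinate synthase, had 0.76 while Mdh1, the cytosolic malate dehydrogenase, had -0.24, its other probe giving -0.03. The 11 further genes of the neuromuscular junction had a median of 0.05, with Agrn, the gene of the nerve signal agrin, at -0.21 and its receptor Lrp4 at 0.17, and 0 passed. The 13 further myogenic genes had a median of 0.00, with 0 past the rule and Cdh15 and Vgll2, a muscle cadherin and a muscle cofactor, both at 0.15.

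Members typical of fast fibres and those typical of slow fibres or heart were set side by side after their values had been seen. The 5 detected fast-fibre members (Actn3, Myoz1, Mybpc2, Atp2a1 and Casq1) had ratios from 0.14 to 0.77 with a median of 0.49, and 0 passed the rule. The 6 slow-fibre or heart members (Sln, Myoz2, Fabp3, Mybpc1, Casq2 and Mb) had ratios from 0.10 to 1.15 with a median of 0.76. Of them 2 passed, Sln by its brighter probe only and Fabp3, which was under the limit with median centring. Ckm, Pgam2 and Eno3, which passed the rule, were placed in neither set. These ranges overlap, and no difference between the sets was tested. In the groups most like the members, 6 of 11 detected striated myosin genes were higher (Myh4, Myh7, Myh8, Myl1, Mylpf and Myl2), with a median of 1.88. Of 11 troponin and tropomyosin genes 4 were higher (Tnnc2, Tnni2, Tnnt1 and Tnnt3), with a median of 0.41. These calls rest on the brightest probe of each gene, and some other probes disagreed. Myh2, Myl3 and Tpm1 were not called, but each had another probe past the rule, at 1.68, 2.85 and 1.27. A further Myh2 probe gave 0.22. Other probes of the called Myh4 and Myh8 gave 0.11 and 0.06. The difference of these groups from the members was not tested.

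Markers of other tissues that a dissected pancreas could hold were read in the same way. All 14 heart markers were detected, 0 passed, and the median was 0.05, with summed raw signals of 7352 and 7266 in the mutant pool, against 8441 and 8216 in the wild-type pool. Such sums are not normalised and weigh bright probes most. By ratio, both arrays put 6 heart markers above 0 and 3 below it. By brightest probe, the largest heart ratios were 0.41 for Tnnt2, detected in the wild type on 1 array, and 0.26 for Myl4. The other Myl4 probe gave 0.35. Tnnt2 is also counted among the troponin genes above, so it is not a marker kept to the heart list. All 9 smooth muscle markers were detected, 0 passed, and the median was 0.02, with sums of 19192 and 18112 in the mutant pool, against 20462 and 20229 in the wild-type pool. Of these, Tagln had 0.23, and -0.13 by its other probe. For 8 brown fat markers, with 0 past the rule, the median was -0.01 and the sums were 2639 and 2396 in the mutant pool, against 3327 and 2392 in the wild-type pool, with Cidea at -0.20 and Cpt1b at 0.10.

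Of 6 tendon markers 1 was higher. Scx, the scleraxis gene of tendon precursors, had raw signals of 1025 and 929 in the mutant pool, against 547 and 438 in the wild-type pool, and was 2.31-fold higher with a ratio of 1.21. The other 5 tendon markers did not pass, Kera being next by brightest probe with 0.12, while the other Thbs4 probe gave 0.17. The list's median was 0.08, with sums of 2289 and 2123 in the mutant pool, against 2077 and 1616 in the wild-type pool. Scx alone made up 1025 and 929 of these mutant sums, against 547 and 438 of the wild-type sums. The summed raw signals of the detected muscle members were 24477 and 21919 in the mutant pool, against 20419 and 17068 in the wild-type pool. Acta1 alone made up 3855 and 3461 of the mutant sums, against 495 and 433 of the wild-type sums. None of these sums is normalised. The part that other tissues collected with the pancreas played in these ratios was not tested, and with 1 pool per genotype it cannot be told apart from genotype.

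The pancreas itself was recognisable in both pools, where 17 of 18 acinar and 10 of 10 endocrine markers were detected. Among the acinar markers Gp2 was higher and Ctrl lower, with a median of 0.00 over the 10 not saturated throughout, and 6 of the 10 endocrine markers (Ins1, Ins2, Gcg, Sst, Ppy and Chga) were lower, with a median of -1.47. The 10 reference genes had a median of 0.01, between -0.33 for Ywhaz, whose other probe gave -0.05, and 0.35 for Gapdh. The single Glis3 probe had ratios of -0.02 and 0.01, with raw signals of 115 and 128 in the mutant pool, against 155 and 115 in the wild-type pool. The sources used here do not say where it lies relative to the mutation, so it does not check the genotype.

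**Figure D5:**
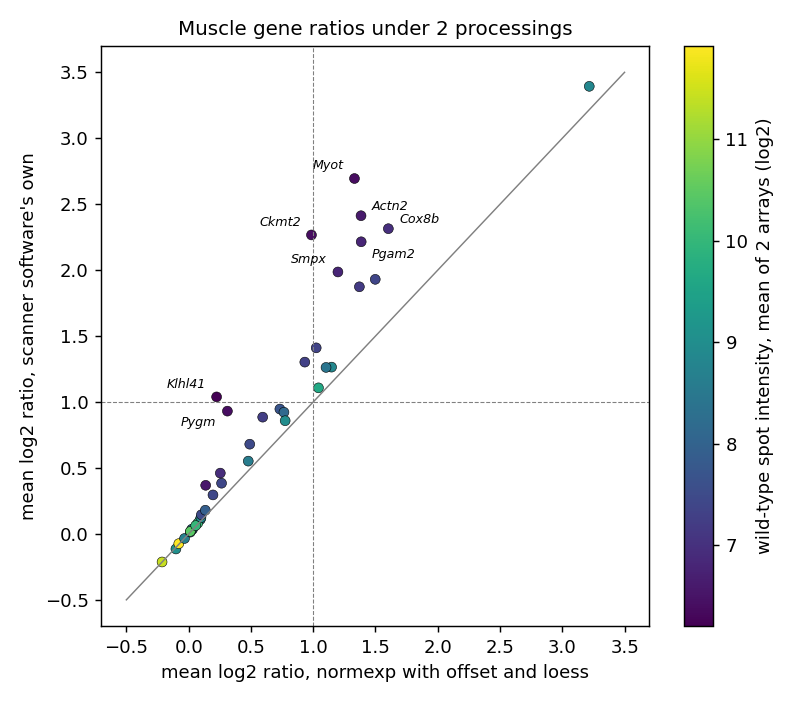
Mean log2 ratio of mutant over wild type for the 40 detected members with normexp background correction, offset and loess (horizontal) against the scanner software's own ratio (vertical), coloured by wild-type raw signal on a log2 scale, with the diagonal and 2-fold lines. Dim genes lie furthest above the diagonal, as for Myot at 2.52-fold against 6.47-fold and Ckmt2 at 1.98-fold against 4.81-fold, while bright genes such as Fabp3 lie near it.

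The folds of dim genes thus differed between the processings, which differ in both background correction and normalisation, and none of the 12 higher members changed sign. The software's ratios called 15 members higher, namely the same 12 with Ckmt2, Myoz2 and Klhl41, where they called 51 of all 16513 genes higher.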

How the data were processed

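RNA of 2 pups was combined per genotype. Per the labels' protocols, labelling started from 500 ng of total RNA, and 750 ng of each cRNA was hybridised for 17 hours. Each of 2 arrays of a dye swap had 41534 gene spots. The deposited scanner files hold mean and local background intensity values per channel, with a log10 ratio (Cy5 over Cy3), per the file headers. The deposited series table holds log2 ratios, 99.98% or more of which match those of the scanner software, turned so that the mutant is on top, within 0.002. Its direction and median of 0 were settled by that comparison. The submitters' processing notes name the software as Agilent Feature Extraction version 7.5. The file headers give another module version, and which of them made the values is not settled.

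Intensities were corrected by normexp with an offset of 50, followed by loess per array with control spots weighted 0 (limma 3.58.1, R 4.3.3, data.table version 1.17.8). Outlier spots, 15 and 53, were left out. Spots of a probe were averaged, as were the arrays once both had the mutant on top. Of 41174 probes, 23267 were named through RefSeq gene names (GRCm38.p6), and the brightest unsaturated probe stood for a gene. Per channel 94.0% to 96.8% of spots were well above background, the local background lay between 46.5 and 50, and 2 arrays limit the precision of every value. Counts and plots were made in Python 3.11.15 (matplotlib 3.10.9, numpy 2.4.6, pandas 2.3.3). The procedure was tested on simulated data. Only genes brighter than the dim members were changed there, so the simulation did not cover the folds of dim genes.

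The members, the context and marker lists and the alternatives were chosen with earlier results of these data known, and the fast and slow fibre sets and the word-described probes after the values were seen. Named are all 46 members, with full values for those past the rule of size or within 0.3 log2 of it, the relatives, and in each other list those past the rule or else the largest ratios. A planned comparison of protein sequences was not made, for want of protein sequences here. Alternatives were an offset of 0, no background subtraction, median centring, the software's ratios, the series table, the median over probes, other filters on dim genes, each array alone and outlier spots kept.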

Additional observations from a re-analysis of the deposited data

How the results depend on the processing

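None of the 12 higher members changed direction under any alternative run, and all 12 were called with an offset of 0, with the software's ratios, with each array alone, with outlier spots kept and with other filters on dim genes. Cav3 was lost without background subtraction, where 11 members were higher, Fabp3 with median centring, where 12 were higher since Ckmt2 joined, and Sln with the median over probes, where 11 were higher. Calcium handling then had 1 higher gene without background subtraction and 1 with the median over probes. An offset of 0 called 14 members, adding Ckmt2 and Myoz2, and over all genes 49 higher and 42 lower, against 38 and 25. The software's ratios called 15 members, and 51 higher and 44 lower over all genes. The array with the mutant in Cy5 alone called 13 members.

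Medians moved with the correction of dim genes. The members' median of 0.40 was 0.71 with an offset of 0, 0.77 with the software's ratios and 0.77 with the series table. It was 0.48 with the median over probes, 0.48 over the 39 members detected in both genotypes and 0.29 over the 42 with no filter. With the other 4 genes read from probes described in words, an alternative chosen after seeing the data, it was 0.26. The Z-disc and sarcomere median of 0.66 was 0.88 with an offset of 0 and 0.93 with the software's ratios and the series table. The calcium handling median of 0.20 was 0.32 with an offset of 0 and 0.37 with the software's ratios and the series table. The energy metabolism median of 1.01 was 1.18 with an offset of 0, 1.19 with the software's ratios and 1.18 with the series table. The settings with the median over probes and with other filters changed which probes or genes entered, and the cause of the other shifts was not tested. No paired analysis was possible because each genotype has a single pool.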
